A study of Mus musculus with 17 samples.

Results

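The collagen chain genes were examined in distant, non-ablated MC38 tumors of mice whose opposite tumor had been frozen, and in tumors of control mice. A gene was counted as a collagen chain when its symbol consists of Col, a type number, the letter a and a chain number, a rule that uses no measured value. It gave 44 of the 21931 genes in the count table: 11 fibrillar chains, 8 chains of the basement membrane and 25 others. Of these, 33 had a mean of at least 10 counts over the 17 tumors.

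MC38 is a mouse colon cancer cell line, which the sample labels give as wild type. All mice were C57BL/6J, 6 to 8 weeks old, and had MC38 cells implanted under the skin of both sides. In the cryoablation group (8 tumors), the tumor of one side was frozen on day 7 with 2 freezing cycles of 20 s per the labels (the study's methods give a longer freezing time), and the tumor of the other side was taken 5 days later. The control group (9 tumors) was taken at the same time without cryoablation. The model is 1 cell line at 1 site, and the labels do not say whether each tumor came from a separate mouse, so p values measure the spread between these tumors. Line and host are both mouse, so reads of MC38 cells and of host stroma cannot be told apart. In whole tumors, fewer collagen-producing cells and less collagen RNA per cell cannot be told apart either.

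Collagens are the main structural proteins of the extracellular matrix. Each molecule is a triple helix of 3 chains, in which a glycine has to recur after every pair of other residues because no larger side chain has room at the center of the helix. Fibrillar collagens have one long helix and pack side by side into the fibrils that give tissue its tensile strength. Type IV collagen forms the sheet of the basement membrane under epithelium and around vessels, and types XV and XVIII are attached to that sheet. The others include type VI, which forms beaded filaments around cells, FACIT collagens, which sit on the surface of fibrils, type VIII, which forms networks, and chains that cross the cell membrane. In tumors, fibroblasts of the stroma are known as a major source of the fibrillar chains, and some cancer cells make collagen themselves.

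The repeat that makes these genes a family is visible in their coding sequence. The stretches below are the first 18 codons of the longest uninterrupted run of glycine triplets in the most abundant fibrillar chain and in Col1a1, Col4a1 and Col6a1, read 5′ to 3′ from the transcript with the longest coding sequence in GENCODE M21 (GRCm38). Capitals mark the first codon of each triplet, a glycine codon with the letters GGN, and lower case marks the pair of codons that follows. In Col3a1 the lower-case codons gga and ggt also encode glycine.
Col1a1: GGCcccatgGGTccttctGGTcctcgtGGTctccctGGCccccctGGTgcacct
Col3a1: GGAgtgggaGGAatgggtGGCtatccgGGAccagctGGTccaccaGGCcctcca
Col4a1: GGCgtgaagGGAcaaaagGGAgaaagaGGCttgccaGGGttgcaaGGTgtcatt
Col6a1: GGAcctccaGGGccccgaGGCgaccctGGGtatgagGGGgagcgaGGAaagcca
They start at codon 168 of Col1a1 (chr11:94936224-94953042, plus strand), codon 164 of Col3a1 (chr1:45311538-45349706, plus strand), codon 43 of Col4a1 (chr8:11198423-11312826, minus strand) and codon 256 of Col6a1 (chr10:76708792-76726168, minus strand). How long the repeat goes on sets the fibrillar chains apart from the rest, whose classes overlap. In the 11 fibrillar chains the longest run held 216 to 344 triplets, with a median of 338, and there were at most 3 runs of 10 or more triplets. In the 6 type IV chains it held 39 to 66 triplets, and 16 to 19 separate runs of that length were found, since the helix of type IV is interrupted many times. The 7 chains of type VI and its relatives reached 28 to 87 triplets, and the 9 FACIT chains 32 to 113. Col7a1, which is not of type IV, also had 18 runs of 10 or more triplets. Exons of exactly 54 bases, which hold 6 triplets, numbered 21 to 33 in each fibrillar chain and 1 to 3 in each type IV chain. They were not limited to fibrillar chains, since the FACIT chain Col22a1 had 28. The 3 network-forming chains, Col8a1, Col8a2 and Col10a1, had 2 coding exons and none of 54 bases.

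Sequencing depth was similar among the tumors, with 13524899 to 17898672 counts per tumor, so that 3 counts corresponded to between 0.168 and 0.222 CPM, the count scaled to a common library total. CPM below also include the TMM factors of edgeR, which correct for differences in RNA composition. Cryoablation replicates 2, 4 and 5 stood apart from the other tumors on the first principal component (-28.4, -39.4 and -33.9 against -8.32 to 20.6), and their TMM factors were 0.767 to 0.886 against at least 0.923 in the others, so each comparison was repeated without them. The 12 listed markers of fibroblasts differed widely in level. The highest were Dcn, the fibril-binding proteoglycan decorin, with a mean of 151 FPKM and Postn, the matrix protein periostin, with 50.4 FPKM. Others were lower, with 35.6 FPKM for Dpt, 5.95 for Pdgfra, 2.74 for Pi16 and 0.746 for Fap, and Tcf21 had 0 counts in every tumor. Of the 10 listed markers of colon epithelium, Cdx2, which defines intestinal identity, had 0 counts in every tumor, and Krt20 and Vil1 had at most 7 and 11 counts. Other genes of that list were detected, with up to 949 counts of Krt19, 609 of Krt8, 427 of Cdh1 and 127 of Epcam in a tumor. The list summed to 143, 143 and 216 CPM in cryoablation replicates 2, 4 and 5, against 11.8 to 97.3 CPM in the other tumors. The epidermal markers summed to 442, 408 and 664 CPM in these 3 tumors, against 182 to 443 CPM in the others. In that list Krt14 had 2783 to 6761 counts per tumor, whereas Krt1, Krt5, Krt10 and Krt15 had at most 5, 51, 82 and 9. The epidermal sum therefore follows Krt14. The part of both marker lists in the collagen values was not tested.

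Collagens took a mean of 1.38% of all counts (SD 0.282, n = 17), from 0.683% in cryoablation replicate 4 to 1.83% in control replicate 4. Per length, in FPKM (counts scaled to the length of the gene and to the total of the tumor), Col3a1 stood first with a mean of 566 FPKM. Col3a1 encodes the single chain of type III collagen, which accompanies type I in soft tissue and early repair. It reached 592 ± 75.4 FPKM (SD, n = 9) in the control group and 535 ± 156 FPKM (SD, n = 8) in the cryoablation group, and its groups overlapped. After it came Col6a1 with 291 FPKM, Col1a1 with 152, Col6a2 with 121, Col6a3 with 90.6, Col1a2 with 90.1 and Col16a1 with 89.99 FPKM. Col5a1, Col5a3 and Col5a2, the chains of the type V collagen that regulates fibril width, followed with 47.9, 35.8 and 32.8 FPKM. The first basement membrane chains were Col4a2 and Col4a1, with 32.7 and 31.1 FPKM. By count, Col3a1 alone held 40.2% of the collagen reads. The fibrillar chains together held a mean of 62.6% (58.3% to 76.6% over the 17 tumors), the basement membrane chains 5.16% (3.81% to 6.10%) and the others 32.2%.

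**Figure D1:**
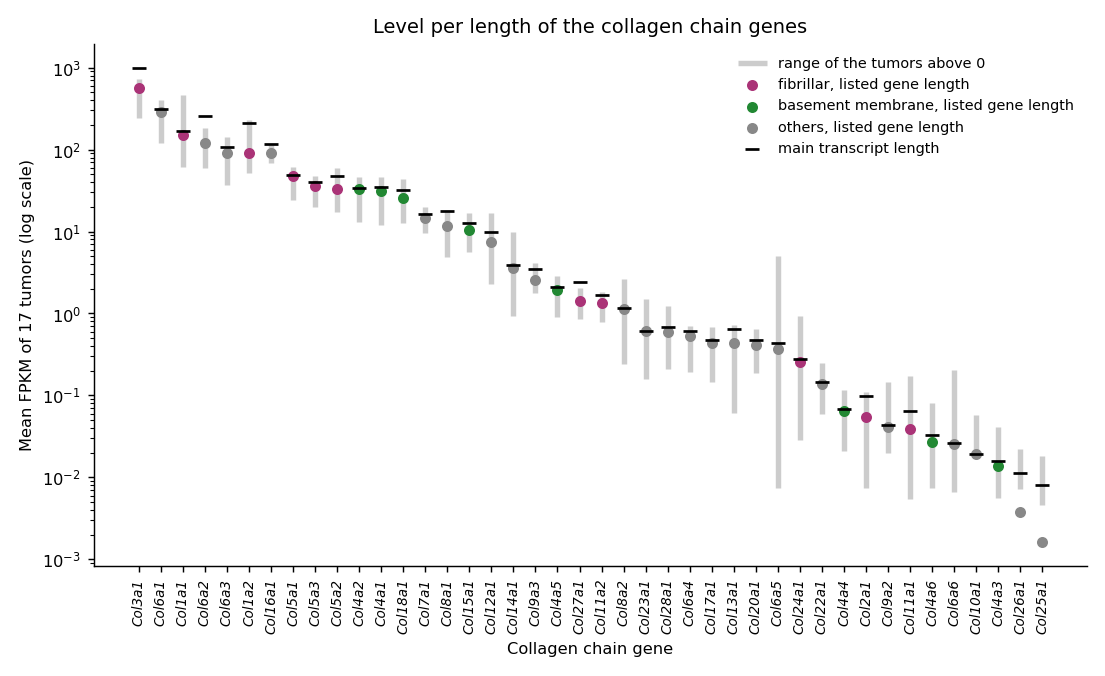
Mean FPKM over 17 tumors (log axis) of the 42 collagen chains with any count, in order of level. Colored points use the gene length listed by the authors, black dashes use the length of the transcript with the longest coding sequence, and gray bars span the tumors above 0. Levels run from 566 FPKM for Col3a1 to 0.00161 FPKM for Col25a1.

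The order among the leading chains depends on the length used. The listed length exceeded that of the transcript with the longest coding sequence by more than 1.5 times for 10 chains, and for Col1a2 it was 12426 against 5348 bases. With transcript lengths Col1a2 had 209 FPKM and stood above Col1a1 with 168 FPKM, the reverse of the order with listed lengths, and Col3a1 had 998 FPKM. The 10 leading chains were the same 10 with both lengths.

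At the other end, Col9a1 and Col19a1 had 0 counts in every tumor. Another 9 chains were below the filter for testing: the cartilage chains Col2a1 and Col11a1, the type IV chains Col4a3 and Col4a6, and Col6a6, Col9a2, Col10a1, Col25a1 and Col26a1. Col2a1, the main collagen of cartilage, had a mean of 8.06 counts per tumor. In contrast, Col11a2 and Col9a3, of the same types as Col11a1 and Col9a2, were tested, with means of 145 and 154 counts. Col10a1, made by hypertrophic cartilage cells, had at most 3 counts in any tumor. The 5 markers listed for cartilage and bone summed to between 0.417 and 1.93 CPM, and none of the 5 passed the filter.

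The comparison of groups asks how a distant tumor differs when a tumor elsewhere in the mouse has been frozen. Differences are given as log2 fold change (log2FC), cryoablation over control, from edgeR's quasi-likelihood test fitted across all 13005 genes that passed the filter. None of the 33 chains tested differed at an adjusted p under 0.05 with edgeR, DESeq2 or limma voom, and neither did any of the 13005 genes (0% called). At an unadjusted edgeR p under 0.05 there were 2 chains, Col12a1 and Col6a5, both lower after cryoablation, which is 6.06% of the chains tested, beside 4.91% of all genes tested in either direction and 1.17% of all genes in the lower direction. At an unadjusted p under 0.05, DESeq2 gave 3 chains, all lower, beside 6.77% of all genes, and limma voom gave 6 chains, 3 of them lower, beside 10.1% of all genes. The log2FC was above 0 for 13 chains and below 0 for 20, with a median of -0.07 beside -0.01 over all genes. Without cryoablation replicates 2, 4 and 5 the median of the chains was 0.07.

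**Figure D2:**
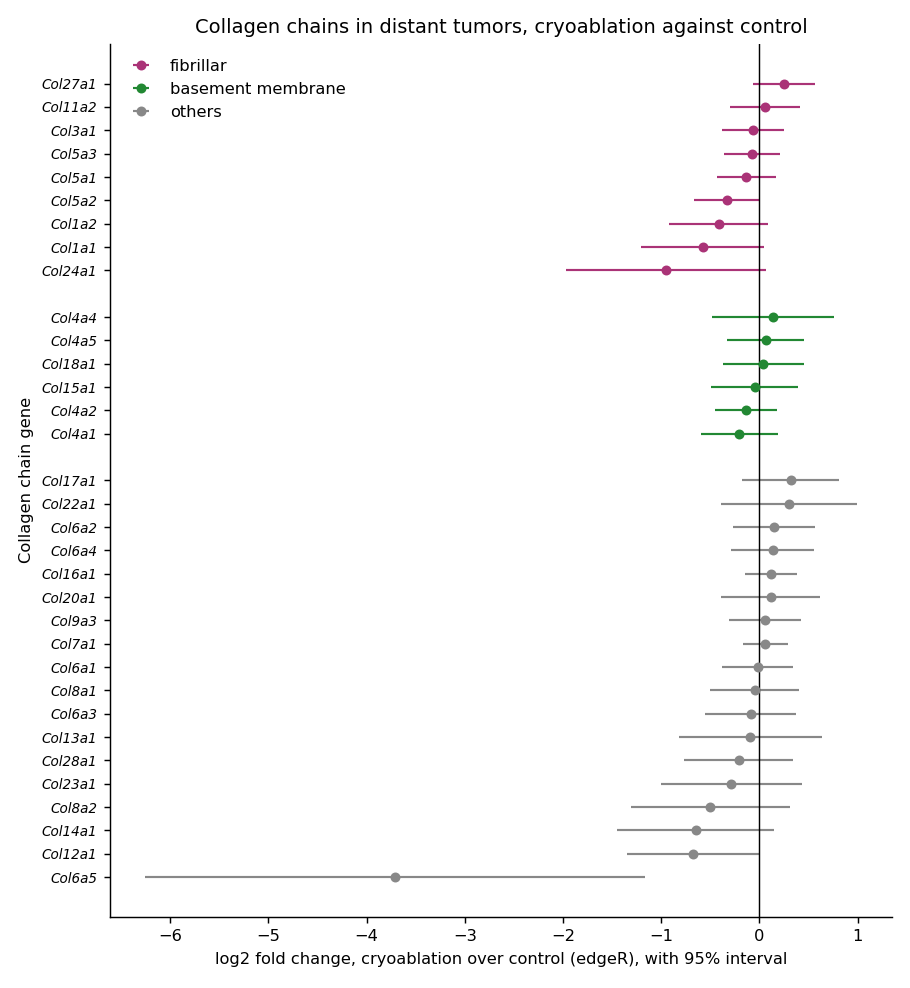
Log2 fold change of the 33 collagen chains tested, cryoablation over control, by edgeR. Points are estimates, bars are 95% intervals and colors mark the class. Intervals of 31 chains include 0, and the interval of Col6a5, which is among the others, runs from -6.25 to -1.17.

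Among the fibrillar chains, 9 were tested, 2 had a log2FC above 0 and 7 below, with a median of -0.13, and 0 had an unadjusted p under 0.05. Type I collagen, the main collagen of tendon, skin and scar, is built from 2 chains of Col1a1 and 1 of Col1a2. Col1a1 was at 553 CPM in the lowest control tumor, 892 in the median and 2909 in the highest, and at 453, 759 and 1207 CPM in the cryoablation tumors. Only control replicate 4 exceeded 1467 CPM among all tumors, and the groups overlapped. The log2FC of Col1a1 was -0.58 (SE 0.30, 95% interval -1.21 to 0.05), with an unadjusted edgeR p of 0.0683, an adjusted p of 0.728 and an exact permutation p of 0.137. Without control replicate 4 it was -0.28. Col1a2 (chr6:4504814-4541544, plus strand) behaved alike: its lowest, median and highest values were 755, 1152 and 2768 CPM in the controls and 641, 933 and 1414 CPM after cryoablation. Again control replicate 4 was the highest, and 7 of 8 cryoablation tumors were below the control median. The log2FC of Col1a2 was -0.42 (SE 0.24, edgeR p 0.0975, adjusted p 0.728), and -0.18 without control replicate 4.

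Col3a1, by contrast with type I, had nearly the same medians in both groups. It ranged from 4858 to 6947 CPM with a median of 5349 in the controls and from 2719 to 7058 CPM with a median of 5378 after cryoablation. The low value is cryoablation replicate 4, and the other 7 cryoablation tumors were at 5111 CPM or above. Its log2FC was -0.07 (SE 0.15, 95% interval -0.38 to 0.25) and was 0.03 without cryoablation replicate 4.

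Type V collagen starts fibrils and limits their width. Col5a2 was at 242, 312 and 542 CPM in the lowest, median and highest control tumors and at 186, 270 and 350 CPM in the cryoablation tumors, with 6 of 8 below the control median. Its log2FC was -0.33 (SE 0.16, edgeR p 0.0544, adjusted p 0.728). Its partner Col5a1 had medians of 427 and 431 CPM and a log2FC of -0.13 (SE 0.14), and Col5a3 had medians of 248 and 231 CPM and a log2FC of -0.08 (SE 0.14). The 2 fibrillar chains at the ends of the list were low in level. Col24a1, a minor fibrillar chain known from developing bone, had a median of 2.08 CPM in controls and 1.39 CPM after cryoablation, and a log2FC of -0.95 (SE 0.48, edgeR p 0.0645, adjusted p 0.728). It was highest in control replicate 4 with 6.79 CPM, and the log2FC without that tumor was -0.60. Col27a1 had medians of 18.2 and 20.8 CPM and the highest log2FC of the fibrillar chains, 0.25 (SE 0.15, edgeR p 0.118). That value was 0.15 without cryoablation replicate 4, 0.06 without cryoablation replicates 2, 4 and 5, 0.08 with limma voom and 0.41 with the gene length offset.

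**Figure D3:**
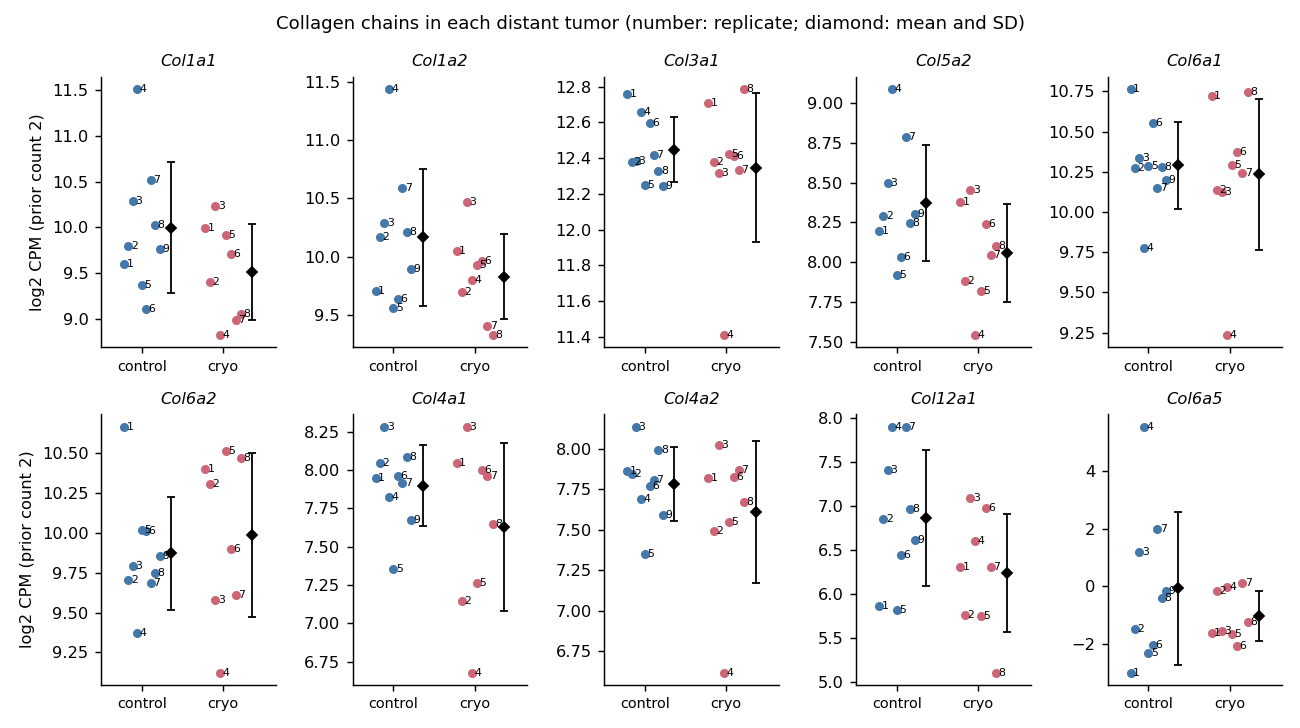
Log2 CPM (prior count of 2) of 10 collagen chains in each of 9 control and 8 cryoablation tumors, with the replicate number beside each point and the group mean and SD as a diamond and bar. Control replicate 4 is the highest control for Col1a1, Col1a2, Col5a2, Col12a1 and Col6a5 and the lowest for Col6a1 and Col6a2, and cryoablation replicate 4 is the lowest cryoablation tumor for the fibrillar, type VI and type IV chains shown except Col1a2 and Col6a5.

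Of the basement membrane chains, 6 were tested, with 3 above and 3 below 0, a median log2FC of -0.01, and 0 with an unadjusted p under 0.05. The common type IV molecule holds 2 chains of Col4a1 and 1 of Col4a2. Col4a1 was at 163, 247 and 311 CPM (lowest, median, highest) in the controls and at 102, 225 and 311 CPM after cryoablation. Col4a2 was at 163, 224 and 281 CPM and at 98.2, 215 and 260 CPM. Both were lowest in cryoablation replicate 4, and the groups overlapped. Their log2FC were -0.21 (SE 0.19) and -0.14 (SE 0.15), and both turned above 0 without cryoablation replicates 2, 4 and 5 (0.08 and 0.04). Col4a5, a chain of the kidney and lung type IV network, had medians of 11.7 and 13.1 CPM and a log2FC of 0.06 (SE 0.19). Col4a4 had medians of 0.693 and 0.683 CPM, with at most 18 counts in any tumor, and a log2FC of 0.14 (SE 0.30). Col4a3 and Col4a6 were untested, with means of 2.12 and 3.35 counts. The median of Col4a6 was 0.0578 CPM in the controls and 0.243 CPM after cryoablation, values near the limit of 3 counts. The multiplexins Col15a1 and Col18a1, whose ends release the fragments restin and endostatin, had log2FC of -0.05 (SE 0.21) and 0.04 (SE 0.20).

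Among the other 25 chains, 18 were tested, 8 above and 10 below 0, with a median log2FC of -0.03. Type VI collagen is assembled from Col6a1, Col6a2 and a further chain, most often Col6a3. Col6a1 was at 876, 1242 and 1737 CPM (lowest, median, highest) in the controls and at 602, 1233 and 1721 CPM after cryoablation. Col6a2 was at 661, 887 and 1624 CPM and at 558, 1111 and 1462 CPM, and Col6a3 at 657, 1110 and 1455 CPM and at 573, 1058 and 1602 CPM. The 3 chains overlapped between groups, with log2FC of -0.02 (SE 0.17), 0.15 (SE 0.20) and -0.09 (SE 0.22), and their edgeR p were 0.915, 0.468 and 0.682. Col16a1, a FACIT chain, had medians of 579 and 627 CPM and a log2FC of 0.12 (SE 0.13). Col8a1, a chain of the network under vessel endothelium, had medians of 79.8 and 82.8 CPM and a log2FC of -0.05 (SE 0.22), and its partner Col8a2 had medians of 5.59 and 3.90 CPM and a log2FC of -0.50 (SE 0.39). Col17a1, which anchors epidermal cells to the basement membrane, had the highest log2FC of all chains tested, 0.32 (SE 0.24, edgeR p 0.192), with 7 of 8 cryoablation tumors above the control median of 2.33 CPM. Its log2FC was 0.205 without control replicate 4.

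Col12a1 (chr9:79598991-79718831, minus strand) was the abundant chain with an unadjusted p under 0.05. It encodes type XII collagen, a FACIT chain that lies along type I fibrils. Its values were 56.1, 116 and 239 CPM (lowest, median, highest) in the controls and 34.3, 79.2 and 136 CPM after cryoablation. Control replicates 3, 4 and 7 had 169, 239 and 238 CPM and were above every cryoablation tumor, whereas the other 6 controls lay within the cryoablation range. The log2FC was -0.68 (SE 0.32, 95% interval -1.35 to -0.0017), with an unadjusted edgeR p of 0.0495, an adjusted p of 0.728 and an exact permutation p of 0.0985. The unadjusted edgeR p was 0.110 without control replicate 4, 0.110 without control replicate 7 and 0.173 without cryoablation replicates 2, 4 and 5. The log2FC in these fits was -0.529, -0.531 and -0.543. Over all fits that leave out 1 tumor the log2FC was -0.817 to -0.529 and the unadjusted edgeR p 0.023 to 0.110.

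Col6a5 (chr9:105856078-105960643, minus strand) is a chain that can take the place of Col6a3 in type VI collagen, known from skin. It had the lowest log2FC of all 13005 genes tested, -3.71 (SE 1.21, unadjusted edgeR p 0.00657, adjusted p 0.728). It was the 1 chain past the study's threshold of an absolute log2FC over 1 with a p under 0.05, taken here as unadjusted. That threshold was passed by 0.492% of all genes. The log2FC of Col6a5 comes from 1 tumor. Control replicate 4 had 708 counts, control replicates 1 to 3 had 0, 4 and 42, and control replicates 5 to 9 had 1, 2, 70, 12 and 13. The cryoablation tumors had 3, 9, 4, 11, 2, 2, 16 and 5 counts in the order of their replicate numbers. Control replicate 4 stood at 45.8 CPM, the other controls at 0 to 3.83 CPM and the cryoablation tumors at 0.114 to 0.964 CPM, so that the remaining groups overlapped. Without control replicate 4 the mean was 0.974 ± 1.35 CPM (SD, n = 8) in the controls against 0.453 ± 0.349 CPM (SD, n = 8) after cryoablation, and the gene no longer passed the filter. The exact permutation p with all tumors was 0.389. DESeq2 gave a log2FC of -1.02 with an unadjusted p of 0.179. Col6a6, its neighbor in the same cluster of genes on chromosome 9, was also highest in control replicate 4, with 1.81 CPM, against 0 to 0.759 CPM in the other tumors.

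The remaining chains tested lay at lower levels or moved little. Col14a1, a FACIT chain beside type XII on fibrils, had medians of 28.8 CPM in the controls and 15.9 CPM after cryoablation, was highest in control replicate 4 and cryoablation replicate 3 (66.3 and 51.3 CPM), and had a log2FC of -0.65 (SE 0.38, edgeR p 0.103). Col7a1, which builds the anchoring fibrils under skin, varied little, from 107 to 198 CPM over all tumors, with a log2FC of 0.06 (SE 0.11). Of the FACIT chains, Col9a3, Col20a1 and Col22a1 had log2FC of 0.06 (SE 0.18), 0.11 (SE 0.24) and 0.30 (SE 0.33). Of the membrane-spanning chains, Col13a1 and Col23a1 had log2FC of -0.09 (SE 0.35) and -0.29 (SE 0.34). Col6a4 and Col28a1, relatives of type VI, had log2FC of 0.14 (SE 0.20) and -0.21 (SE 0.26), and the minor fibrillar chain Col11a2 of 0.06 (SE 0.17). The 95% intervals of all 10 chains in these sentences included 0.

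Of the 33 chains tested, control replicate 4 was the highest control for 9 and the lowest for 10, and control replicate 5 was the highest for 1 and the lowest for 15. Fibrillar chains made up 76.6% of the collagen counts of control replicate 4, against 59.6% to 66.1% in the other controls and 58.3% to 64.3% after cryoablation. Its 6 leukocyte markers, all tested, summed to 980 CPM, against 316 to 583 CPM in the other controls and 266 to 494 CPM after cryoablation. Its 9 endothelial markers summed to 226 CPM, against 104 to 204 CPM in the other controls. Its fibroblast markers summed to 2148 CPM, second to control replicate 7 with 2233 CPM, in a range of 1475 to 2233 CPM over the controls and 1471 to 2270 CPM after cryoablation. The part of these cell types in the collagen values was not tested. Cryoablation replicate 4 was the lowest of its group for 13 of the 33 chains, and Col1a1, Col3a1, Col4a1, Col4a2, Col5a1 and Col6a1 were all lowest there. How often control replicates 4 and 5 and cryoablation replicate 4 were highest or lowest over all genes was not worked out. These counts are thus not shown to be particular to collagens.

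Chains of 1 molecule did not always go together from tumor to tumor. Correlations were computed for 12 pairs over the 17 tumors on log2 CPM, with permutation p adjusted over the 12, and 4 pairs had an adjusted p under 0.05 by Pearson's r. Col1a1 and Col1a2 had an r of 0.943 and a Spearman's rho of 0.924, with adjusted permutation p of 6e-05 and 0.00012, where the raw p of 1e-05 is the smallest that 100000 permutations can give. Leaving out the 2 tumors farthest from the median gave an r of 0.958, and within the groups r was 0.979 and 0.836. Even so, the counts of Col1a1 over Col1a2 ranged from 0.508 in cryoablation replicate 4 to 1.05 in control replicate 4, against the 2 to 1 ratio of the chains in the protein, with a mean of 0.897 ± 0.108 (SD, n = 9) in controls and 0.819 ± 0.148 (SD, n = 8) after cryoablation (exact permutation p 0.254). These ratios are of counts, so transcript length and mapping enter them.

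Col4a1 and Col4a2 had an r of 0.938 and a rho of 0.917 (adjusted permutation p 6e-05 and 0.00012), with 0.982 and 0.921 within the groups. The counts of Col4a1 over Col4a2 were close to 1, with 1.09 ± 0.0472 (SD, n = 9) in controls and 1.03 ± 0.153 (SD, n = 8) after cryoablation, and the exact permutation p was 0.272. Col6a1 and Col6a2 had an r of 0.805 and a rho of 0.789 (adjusted permutation p 0.0002 and 0.0016), with 0.907 and 0.794 within the groups. For Col5a1 and Col5a2 r was 0.694 (adjusted permutation p 0.00657), but rho was 0.539 (adjusted permutation p 0.0819), and r fell to 0.370 without cryoablation replicates 2, 4 and 5.

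The relation was not detectable for other partners. Col1a1 and Col3a1, which are laid down in the same fibrils, had an r of 0.326 and a rho of 0.167 (adjusted permutation p 0.346 and 0.624), and r was -0.249 without the 2 farthest tumors. Col6a3 and Col6a1 had an r of 0.384 and a rho of 0.194 (adjusted permutation p 0.305 and 0.609), and Col6a3 had between 0.458 and 1.32 times the counts of Col6a1. Col8a1 and Col8a2 had an r of 0.123, Col4a5 and Col4a6 of -0.325 and Col4a3 and Col4a4 of 0.0458, with adjusted permutation p of 0.767, 0.346 and 0.862. Col4a3, Col4a4 and Col4a6 had few counts in every tumor, which limits the last pairs. The summed fibroblast markers had an r of 0.293 with Col1a1 and 0.155 with Col6a1, and the summed endothelial markers 0.0992 with Col4a1, with adjusted permutation p of 0.389, 0.757 and 0.768. Within the controls the fibroblast markers had an r of 0.782 with Col1a1 and within the cryoablation group of -0.401. With Col6a1 these r went the other way, -0.634 and 0.551. For the endothelial markers and Col4a1 they were 0.514 and -0.295, and r over both groups was 0.53 without cryoablation replicates 2, 4 and 5.

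**Figure D4:**
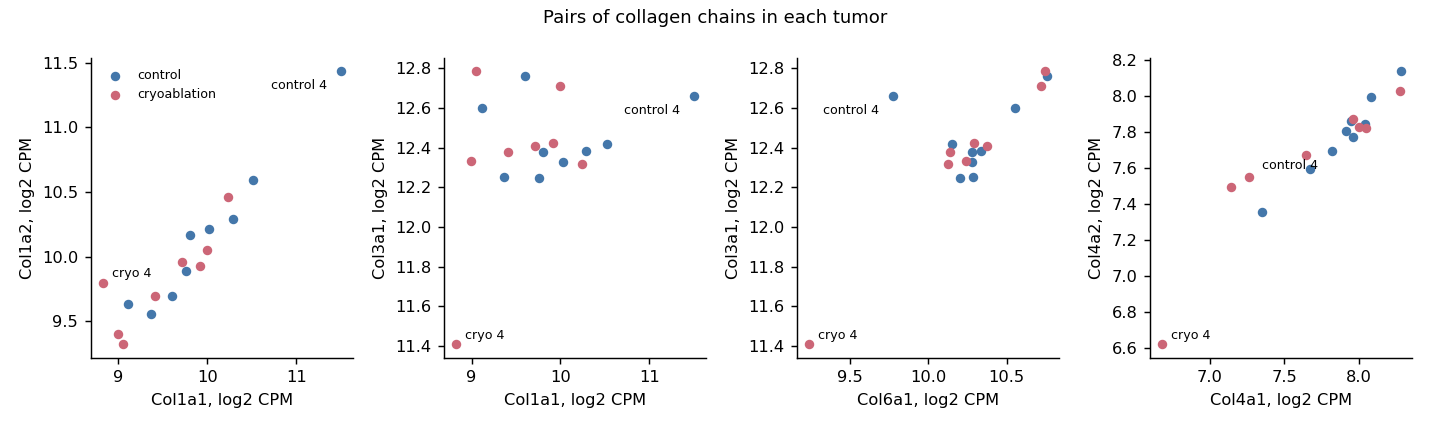
Log2 CPM of pairs of collagen chains in each tumor, with control replicate 4 and cryoablation replicate 4 named. Col1a1 with Col1a2 and Col4a1 with Col4a2 lie along a line (r 0.943 and 0.938), Col1a1 with Col3a1 does not (r 0.326), and Col3a1 with Col6a1 does apart from control replicate 4.

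As a description without a test, all 528 pairs of the 33 chains were set side by side, using deviations from the group means over the 17 tumors. The points share a library, its depth and its TMM factor. The median r was 0.13, 25 pairs were above 0.8 and 209 were below 0. Around Col1a1 stood Col1a2 (r 0.936), Col5a2 (0.857), Col15a1 (0.829), Col14a1 (0.781) and Col12a1 (0.672). Col12a1, Col14a1 and Col15a1 were correlated with each other at 0.837 to 0.889, and Col24a1 with Col12a1 at 0.887. Without control replicate 4 the 5 chains named first stood at 0.598 or more with Col1a1, whereas Col6a5 went from 0.627 to 0.268 and Col24a1 from 0.528 to 0.343.

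The r of Col3a1 was 0.818 with Col6a1 (0.973 without control replicate 4), 0.684 with Col6a2 and 0.308 with Col6a3, and it was 0.287 with Col1a1 and 0.0327 with Col1a2. The differences between these r were not tested. Col6a2 was correlated with Col18a1 (0.912), Col22a1 (0.870) and Col16a1 (0.869). A further set joined chains of different classes: Col5a1 with Col4a1 (0.924), Col4a2 (0.849) and Col6a3 (0.862), and Col6a3 with Col8a1 (0.904). That set moved with the TMM factor of the tumors, with r of 0.808 for Col5a1, 0.787 for Col4a1, 0.590 for Col4a2, 0.887 for Col6a3 and 0.818 for Col8a1. For Col1a1, Col1a2 and Col3a1 the r with the TMM factor was 0.204, 0.243 and 0.197, and for Col16a1 -0.608. The part of the TMM factor in these relations was not tested.

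**Figure D5:**
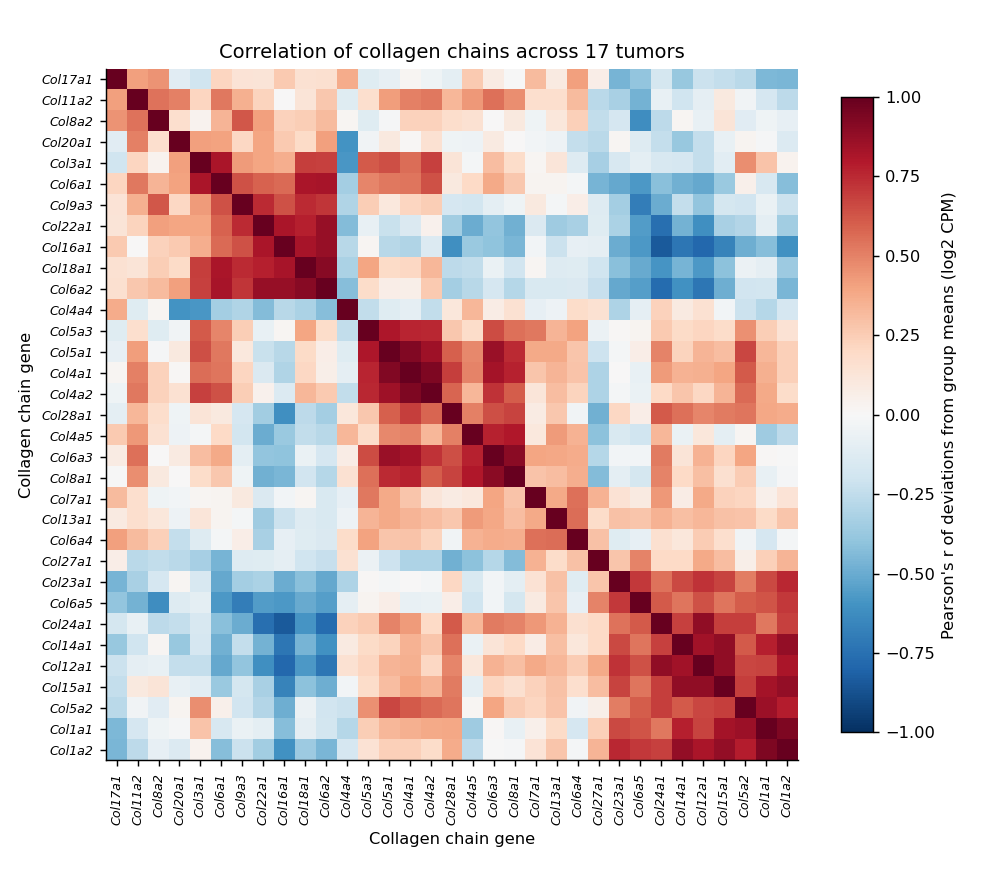
Pearson's r between the 33 collagen chains tested, over deviations from the group means of log2 CPM in 17 tumors, with chains ordered by average-linkage clustering. Col1a1 and Col1a2 lie in 1 block with Col5a2, Col15a1, Col12a1 and Col14a1, Col3a1 lies beside Col6a1, and Col4a1 and Col4a2 lie with Col5a1, Col5a3 and Col6a3.

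The type IV genes are arranged in head-to-head pairs, and the window before the start of Col4a2 is shown because it also holds the start of Col4a1, which had counts close to those of Col4a2 in most tumors. It is chr8:11312555-11312854 of GRCm38.p6, plus strand, 250 bases before to 50 after the start of Col4a2 in RefSeq. Capitals mark the 78 bases (chr8:11312777-11312854) that also belong to the promoter window of Col4a1, which is read on the minus strand.
Col4a2 promoter: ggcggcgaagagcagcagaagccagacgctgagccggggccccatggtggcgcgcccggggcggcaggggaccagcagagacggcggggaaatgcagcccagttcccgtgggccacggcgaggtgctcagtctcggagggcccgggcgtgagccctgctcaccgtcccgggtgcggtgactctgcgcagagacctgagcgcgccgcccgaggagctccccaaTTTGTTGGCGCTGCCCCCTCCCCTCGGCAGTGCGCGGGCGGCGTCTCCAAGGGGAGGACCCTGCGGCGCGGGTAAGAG
The start sites lie 21 bases apart and the transcripts overlap between them, where reads of both genes cannot be told apart if strand was not used in counting, which the sources do not state. The window is 73.7% G and C and holds the GC box letters GGGCGG at 3 positions, on either strand. The starts of Col4a5 and Col4a6 on the X chromosome, also head to head, lie 1343 bases apart, and the levels of these chains differed, with 1.95 and 0.0273 FPKM.

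Promoter windows of the same length were found in RefSeq for 35 of the 44 chains, with 38 windows. The GC box letters GGGCGG occurred, on either strand, in 60.5% of them and in 35.7% of all 32851 windows. CCAAT occurred in 34.2% against 37.4%, and the TATA box letters TATAAA in 13.2% against 13.6%. These are matches of letters only.

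Making collagen needs a set of enzymes and chaperones, and 33 genes of this machinery were listed. Of these 29 passed the filter, 15 with a log2FC above 0 and 14 below, with a median of 0.01. At an unadjusted edgeR p under 0.05 there were 2, which is 6.90% beside 4.91% of all genes, and 0 had an adjusted p under 0.05 with edgeR, DESeq2 or limma voom. Both remove propeptides from procollagen. Adamts2, the main N-propeptidase of types I and III, was at 52.8, 59.1 and 74.5 CPM (lowest, median, highest) in the controls and at 42.0, 53.8 and 61.2 CPM after cryoablation, with 7 of 8 tumors below the control median. Its log2FC was -0.21 (SE 0.09, unadjusted edgeR p 0.0384, adjusted p 0.728, exact permutation p 0.0275). Adamts14, a related N-propeptidase, was at 33.0, 35.6 and 44.0 CPM and at 34.2, 43.7 and 51.9 CPM, with 7 of 8 tumors above the control median. Its log2FC was 0.21 (SE 0.09, unadjusted edgeR p 0.0344, adjusted p 0.728, exact permutation p 0.0303). Without cryoablation replicates 2, 4 and 5 the unadjusted edgeR p were 0.166 and 0.0873.

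The most abundant gene of each step was well expressed in every tumor. Serpinh1, the collagen chaperone HSP47, had a mean of 530 FPKM and medians of 1218 CPM in the controls and 1244 CPM after cryoablation, with a log2FC of -0.02 (SE 0.14). P4hb, a subunit of the prolyl hydroxylase that stabilizes the helix, had 309 FPKM and a log2FC of 0.07 (SE 0.09). Pcolce, which enhances removal of the C-propeptide, had 186 FPKM and a log2FC of 0.29 (SE 0.20), which was 0.12 without cryoablation replicate 5 and -0.07 without cryoablation replicates 2, 4 and 5. Colgalt1, which adds galactose to hydroxylysine, had 40.1 FPKM and a log2FC of -0.35 (SE 0.29), and turned to 0.09 without cryoablation replicates 2, 4 and 5. Loxl1, a cross-linking oxidase, had 29.2 FPKM and a log2FC of -0.12 (SE 0.13). The 9 genes of proline hydroxylation were tested, 8 of them above 0, and the 5 cross-linking genes were all below 0 (median log2FC 0.07 and -0.12), and none of these 14 had an unadjusted edgeR p under 0.05.

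Of the 10 lists of cell type markers, none had a difference in summed CPM between the groups with an exact permutation p under 0.05. The fibroblast list, in which 11 of 12 genes passed the filter and Tcf21 was at 0 counts in every tumor, had medians of 1792 CPM in the controls and 1619 CPM after cryoablation (exact permutation p 0.453). Pericyte and smooth muscle markers had medians of 293 and 286 CPM, and endothelial markers 144 and 143 CPM (exact permutation p 0.770 and 0.953). Leukocyte markers had medians of 432 and 392 CPM and adipocyte markers of 23.8 and 32.1 CPM (exact permutation p 0.280 and 0.113). Skeletal muscle markers ranged from 3.003 CPM in control replicate 2 to 150 CPM in control replicate 6 (exact permutation p 0.653). Epidermal markers, with Krt14 as the abundant one, had medians of 275 and 250 CPM (exact permutation p 0.639). Colon epithelial markers had medians of 30.4 and 45.6 CPM and Schwann cell markers of 24.4 and 26.9 CPM (exact permutation p 0.267 and 0.785). For cartilage and bone markers the exact permutation p was 0.154.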

How the data were processed

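RNA of 9 control and 8 cryoablation tumors was sequenced, per the study's methods on a NovaSeq platform after mRNA capture on magnetic beads. Tumors were grouped by their labels, whereas the study's text gives the sizes the other way round, 9 for cryoablation and 8 for control. The authors deposited, for each gene and tumor, a read count that is not normalized, and FPKM. A check found that each FPKM is the count scaled by the listed length and by the tumor's total. The authors also listed a length for each gene. The labels name the builds GRCm38 and mm10, whereas the listed positions equal those of GENCODE M21 (GRCm38) for 512 of 21827 shared genes, so coordinates are those of GENCODE M21 by gene ID. The aligner, counting program and strandedness are not given in the sources used here. A total of 0 columns had no sample.

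Counts were tested with edgeR 4.0.16 (TMM, filterByExpr, quasi-likelihood F test, group as the only term) in R 4.3.3, and p values were adjusted over the 13005 genes tested (Benjamini-Hochberg). The SE is the log2 fold change over the square root of F. For named genes a two-sided exact permutation test was also run on log2 CPM (prior count of 2) over 24310 splits, whose smallest p is 4.11e-05, and correlations were tested with 100000 permutations. The limit of 3 counts covers counting error only. Totals of 13524899 to 17898672 counts set the precision. Scripts were tested on simulated data. Repeats and promoter letters were searched with Python 3.11.15. No protein sequences were used.

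Named with values are the 10 chains of highest mean FPKM, chains with an unadjusted edgeR p under 0.05, partners in a molecule, the highest and lowest log2 fold change per class, and, among processing genes, those with an unadjusted p under 0.05 and the most abundant per step. Other chains were named after their values were seen. The members, gene lists and tests were chosen with earlier results of these data known. Alternatives were DESeq2 1.42.0, upper-quartile normalization, limma 3.58.1 voom with quality weights, other filters, a replicate block, a gene length offset (natural spline with 4 degrees of freedom), a prior count of 0.5, and leaving out tumors. FPKM by transcript length and correlations without control replicate 4 were added after seeing the data.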

Additional observations from a re-analysis of the deposited data

Results flagged for a closer look

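A tumor stood apart from the rest of its group by Dixon's criterion at the 95% level in 9 of 56 groups checked. Some of the genes checked had been named for their p, and correlated chains such as Col1a1 and Col1a2 share tumors. The count therefore cannot be set against a rate by chance. In control replicate 4, Col1a1 was at 2909 CPM against 553 to 1467 in the other controls, Col1a2 at 2768 CPM against 755 to 1542, and Col6a5 at 45.78 CPM against 0 to 3.83. In control replicate 1, Col6a2 was at 1624 CPM against 661 to 1035 and Serpinh1 at 1919 CPM against 1084 to 1506. In control replicate 5, Col5a1 was at 280.6 CPM against 400.3 to 475.6. In cryoablation replicate 4, Col3a1 was at 2719 CPM against 5111 to 7058 in the other cryoablation tumors and Col27a1 at 30.44 CPM against 14.35 to 21.68. In cryoablation replicate 5, Loxl1 was at 142.2 CPM against 72.1 to 101.9. Control replicate 4 also held the highest sum of leukocyte markers, 980 CPM. Cryoablation replicates 4 and 5 are among the 3 tumors that stood apart on the first principal component. The causes were not tested.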

How the results depend on the processing

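No chain and no processing gene had an adjusted p under 0.05 under any alternative run. The 2 chains with an unadjusted p under 0.05 (4.91% of all genes) became 6 with limma voom (10.1%), 4 without a filter (5.57%), 1 with the replicate block (3.39%), 1 with the gene length offset (5.16%) and 1 without cryoablation replicates 2, 4 and 5 (2.45%). Leaving out 1 tumor gave 0 (without control replicate 3, 4, 7 or 8) to 7 (without cryoablation replicate 3). The share of all genes called was not worked out for the fits that leave out 1 tumor. Their counts of chains and of processing genes are therefore given without a comparison. Col6a5 could be tested in 12 of the 17 fits that leave out 1 tumor, and not without control replicate 4. The 2 processing genes became 1 with limma voom, 1 with the replicate block and 0 without cryoablation replicates 2, 4 and 5, and 0 (without control replicate 7 or cryoablation replicate 2) to 4 (without cryoablation replicate 3) when 1 tumor was left out. The replicate block used 16 tumors, without control replicate 9. Tumors with the same number did not pair: the correlations of their deviations were -0.51 to 0.642, and in 2 of 8 pairs a tumor correlated best with its own number.

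Some log2 fold changes turned direction. Without cryoablation replicates 2, 4 and 5, they became 0.0606 for Col3a1, 0.0758 for Col4a1, 0.042 for Col4a2, 0.0833 for Col5a1, 0.0582 for Col5a3, 0.145 for Col6a1, 0.216 for Col6a3, 0.248 for Col8a1, 0.09 for Colgalt1 and -0.0705 for Pcolce. With limma voom they became 0.174 for Col3a1, -0.232 for Col4a4, 0.00128 for Col5a1, 0.247 for Col6a1 and 0.0877 for Serpinh1, and with the length offset 0.0355 for Col3a1 and 0.000552 for Col6a1. Leaving out 1 tumor gave -0.133 to 0.0323 for Col3a1, -0.0579 to 0.251 for Col4a4, -0.0134 to 0.14 for Col4a5, -0.0999 to 0.0851 for Col6a1, -0.166 to 0.0363 for Col8a1 and -0.108 to 0.0616 for Serpinh1. The r of Col4a3 and Col4a4 became -0.0194 with a prior count of 0.5 and -0.0105 without cryoablation replicates 2, 4 and 5, and that of fibroblast markers and Col6a1 -0.153 without those tumors. The causes were not tested. Depth limits Col4a3, Col4a4, Col4a6 and the 11 untested chains, whose counts were few.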
